A study of Mus musculus with 6 samples.

Results

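The 10 genes described here are the immediate early genes Egr1, Fos, Fosb, Jun, Junb, Jund, Atf3, Ier2, Ier3 and Myc, out of 19550 genes represented on the arrays. They were chosen by symbol, and each of the 10 had exactly 1 probe set annotated with that symbol alone. Liver RNA of male C57BL/6NCrSlc mice was hybridised to 6 Affymetrix arrays, 2 in each of 3 groups. The first group were SMP30/GNL knockouts on a diet deficient in ascorbic acid (AA, vitamin C) without AA in the water (AA-deficient KO). The next group were SMP30/GNL knockouts on the same diet with AA in drinking water that was stabilised with EDTA (AA-supplemented KO), and the third were wild-type mice, labelled as deprived of vitamin C, with water that held none (WT). All mice thus shared the AA-deficient chow. Whether the groups without AA received EDTA, the age of the mice and the part of the gene removed in the knockout are not stated. SMP30/GNL, encoded by Rgn, is a gluconolactonase of the pathway by which mice make AA, and the series asks how its loss and the loss of AA act on the liver transcriptome.

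Immediate early genes are those a cell transcribes within minutes of a signal, before any new protein is made. Growth factor receptors and stress kinases switch them on through factors already bound at their promoters, among them serum response factor with its partners and the CREB and ATF proteins. In liver they are known for their rapid induction after partial hepatectomy and by handling, feeding, cytokines and stress. Egr1 is a zinc finger factor. The Fos proteins pair with the Jun proteins to form the AP-1 factor, and Atf3 is a stress-induced member of the ATF family. Ier2 is a nuclear protein, Ier3 is a stress-inducible survival protein that is not a DNA-binding factor, and Myc is a transcription factor of cell growth that binds DNA as a pair with Max.

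The deposited values are on a log scale whose base is not stated, and they were read as log10. Values and differences below are in these units, and a fold is given on that reading. A gene was tested if its mean over the 6 arrays reached 0.185, the 25th percentile of all genes. That left 14662 genes and 6 of the 10: Egr1, Jun, Junb, Jund, Ier2 and Myc. Ier2 lay just inside that limit with a mean of 0.211 and Fos just outside it with 0.177. The means of Atf3 (0.142), Ier3 (0.109) and Fosb (0.0307) were lower still, and for these genes and Fos values are given without a test. No detection call was used, so a low value cannot be told apart from background.

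The arrays of a group correlated at 0.965 to 0.975 over all probe sets, and pairs from different groups at 0.945 to 0.974. Separate animals behind the 2 arrays of a group are not stated, so the p-values measure the spread between these samples only, which may be technical. Rgn, the targeted gene, was at 0.229 and 0.297 in AA-deficient KO, at 0.339 and 0.141 in AA-supplemented KO, and at 2.07 and 1.996 in WT, low on every array labelled knockout. The albumin gene Alb, which marks hepatocytes, lay between 2.22 and 2.37 on all arrays. Array 2 of the AA-supplemented KO stood apart: its 10 hepatocyte markers summed to 1845 on the linear scale, and those of the other 5 arrays to between 1277 and 1460. The replicate difference over all tested genes was also widest in that group, with an SD of 0.104, compared with 0.0794 in AA-deficient KO and 0.0788 in WT.

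Egr1 was the only tested gene of the set with a call between 2 groups, at an adjusted p under 0.05 in limma in AA-deficient KO against WT. It was at 0.978 and 0.782 in AA-deficient KO, at 1.08 and 0.7895 in AA-supplemented KO, and at 0.314 and 0.401 in WT. All 4 knockout arrays lay above both WT arrays, and the ranges of the knockout groups overlapped each other. The mean was 0.880 ± 0.138 in AA-deficient KO, 0.935 ± 0.206 in AA-supplemented KO and 0.357 ± 0.0614 in WT (SD, n = 2 each). In whole liver, more cells of a type and more RNA per cell cannot be told apart.

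**Figure D1:**
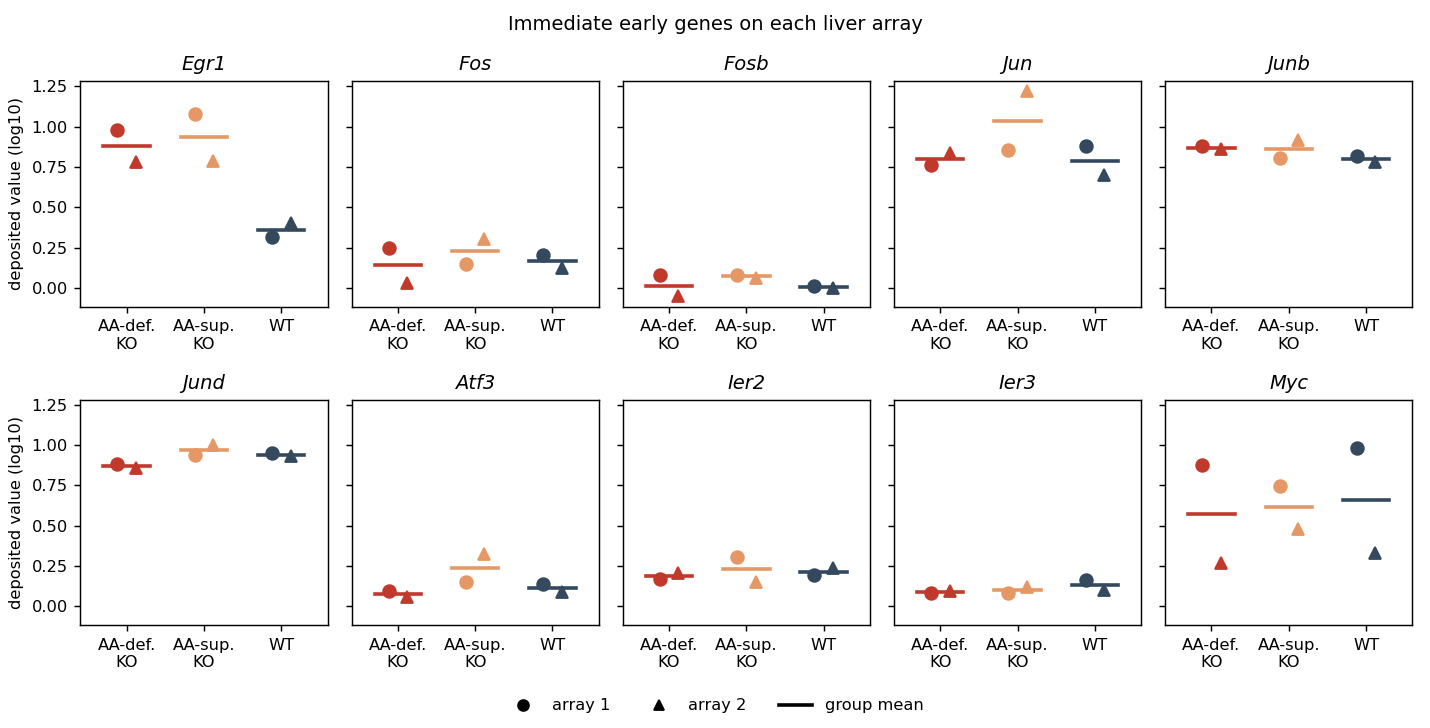
Deposited value (log10) of each of the 10 genes on the 6 arrays. Circles are array 1 and triangles array 2 of a group, and bars are group means of 2 arrays. Egr1 is above both WT arrays on all 4 knockout arrays, while Myc is split by array within every group.

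Against WT, Egr1 rose in AA-deficient KO by 0.523 (SE 0.0989, 95% interval 0.294 to 0.751), or 3.33-fold, with an adjusted p = 0.0320 in limma over the 14662 genes. It ranked 17 among all tested genes by the size of its rise. In this comparison 4.63% of tested genes passed in either direction, and 1 of the 6 tested members passed. In AA-supplemented KO Egr1 was 0.578 above WT (SE 0.0989, 95% interval 0.349 to 0.807), or 3.78-fold, and ranked 4 among all genes by difference, but it did not pass (adjusted p = 0.167 in limma). There 0.00682% of genes passed, a single gene, Rgn itself, and 0 of the 6 members. At an unadjusted p under 0.05 there were 1557 genes and 1 member, Egr1. With a trend in the variance prior, limma called Egr1 there as well (adjusted p = 0.0324).

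Between the knockout groups Egr1 differed by -0.0554 (SE 0.0989), with a 95% interval of -0.284 to 0.173, or 0.520-fold to 1.49-fold. This contrast is also the test of whether the rises of the knockout groups over WT differ, and it did not pass (adjusted p = 0.928 in limma). Between the knockout groups 0.205% of all genes passed (0.0409% higher and 0.164% lower in AA-deficient KO) and 0 of the 6 members, none of them at an unadjusted p under 0.05 either, where 1454 genes were. The interval for Egr1 leaves room for a difference in either direction. Both comparisons with WT share the same 2 WT arrays. When the knockout groups were averaged and set against WT, a comparison chosen after the values had been seen, Egr1 was 0.550 higher in knockouts (SE 0.0857, 3.55-fold, adjusted p = 0.0321 in limma), and 2.02% of genes passed. That call too was lost without WT array 1 (adjusted p = 0.305) or WT array 2 (adjusted p = 0.183). In the test of any difference among the 3 groups, Egr1 had an adjusted p = 0.0502 in limma, where 1.36% of genes and 0 of the 6 members passed.

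The call of Egr1 in AA-deficient KO against WT was lost without the filter on low values (adjusted p = 0.0723 in limma) and without some single arrays. Without AA-deficient KO array 1 the difference was 0.425 (adjusted p = 0.107 in limma), without WT array 1 it was 0.479 (adjusted p = 0.223) and without WT array 2 it was 0.566 (adjusted p = 0.143). Without either WT array only 1 of the 14662 genes passed in this comparison.

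**Figure D2:**
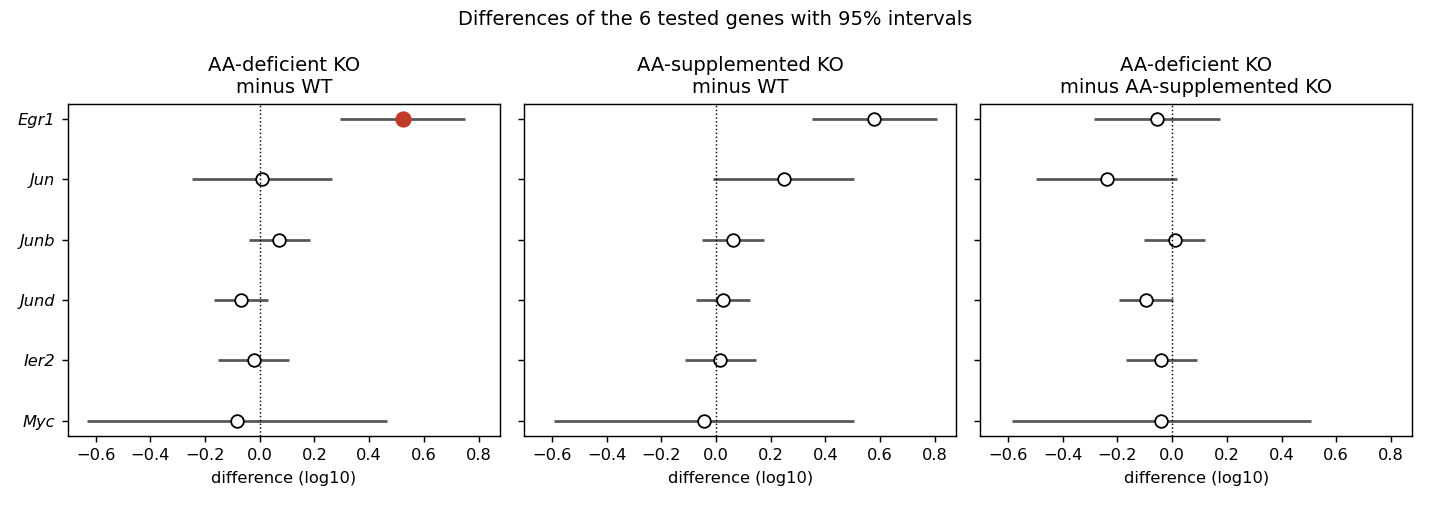
Difference between group means (log10, first group minus the other) for the 6 tested genes, with 95% intervals from limma, in the 3 comparisons. The filled point marks the 1 call, Egr1 in AA-deficient KO against WT, and the other 17 points are open.

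The genes whose profile over the 6 arrays lay closest to that of Egr1, by the root mean square distance between centred values, were Lrtm1 at 0.134, Kmt2d at 0.136, Acss3 at 0.139, Krt23 at 0.142 and Lrp1 at 0.148. The centred values of Egr1 itself had a root mean square of 0.281, so the nearest profiles still departed from it by a large part of its own variation. Kmt2d, a histone methyltransferase, was at 0.826 and 0.880 in AA-deficient KO, at 0.806 and 0.833 in AA-supplemented KO, and at 0.351 and 0.469 in WT. Lrp1, an endocytic receptor of the LDL receptor family, was at 1.93 and 1.94 in AA-deficient KO, at 1.84 and 1.97 in AA-supplemented KO, and at 1.36 and 1.55 in WT. These genes were picked for their likeness to Egr1 on the same arrays, so that their order over the groups follows from the choice and is given without a test.

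The Jun family and Fos did not follow Egr1. Jun was at 0.759 and 0.836 in AA-deficient KO, at 0.855 and 1.22 in AA-supplemented KO, and at 0.881 and 0.699 in WT. The single high array, AA-supplemented KO array 2, set its mean in that group, and the WT arrays enclosed those of the AA-deficient KO. Jun differed by 0.00741 (SE 0.111) in AA-deficient KO against WT (adjusted p = 0.979 in limma), and by 0.247 (SE 0.111) in AA-supplemented KO against WT (adjusted p = 0.489). Without AA-supplemented KO array 2 the difference between AA-supplemented KO and WT was 0.0649. Between AA-deficient and AA-supplemented KO Jun differed by -0.240 (95% interval -0.497 to 0.0173, adjusted p = 0.543 in limma), and by -0.0575 without that array.

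Junb, a Jun protein that often opposes Jun on shared targets, was at 0.882 and 0.859 in AA-deficient KO, at 0.807 and 0.916 in AA-supplemented KO, and at 0.817 and 0.781 in WT. Jund, the family member that is also made in resting cells, was at 0.886 and 0.860 in AA-deficient KO, at 0.936 and 0.9995 in AA-supplemented KO, and at 0.951 and 0.931 in WT. The 2 genes thus lay within narrow ranges, of 0.135 for Junb and 0.140 for Jund over the 6 arrays. Against WT, the AA-deficient KO differed by 0.0711 for Junb (SE 0.0486, adjusted p = 0.470 in limma) and by -0.0681 for Jund (SE 0.0425, adjusted p = 0.424). Neither passed, although the arrays of these groups did not overlap for either gene, Junb being higher and Jund lower in AA-deficient KO. In all, 3 of 6 tested members did not overlap between AA-deficient KO and WT, 2 higher (Egr1 and Junb) and 1 lower (Jund), where 54.5% of all tested genes did not overlap, 27.6% higher and 26.9% lower. In AA-supplemented KO against WT the count was 1 of 6, Egr1, beside 38.6% of all genes (19.8% higher and 18.8% lower). Between the knockout groups it was 2 of 6, Jun and Jund, both lower in AA-deficient KO, beside 37.3% of all genes (19.8% higher and 17.5% lower). In either direction together, none of these 3 counts exceeded the share of all genes. By direction, the 2 higher in AA-deficient KO against WT and the 2 lower between the knockout groups were above it, on 6 genes.

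Fos, the founding partner of Jun, was at 0.250 and 0.0310 in AA-deficient KO, at 0.149 and 0.303 in AA-supplemented KO, and at 0.206 and 0.123 in WT. Atf3 was at 0.0979 and 0.0552 in AA-deficient KO, at 0.153 and 0.322 in AA-supplemented KO, and at 0.138 and 0.0875 in WT. The highest value of both genes was on AA-supplemented KO array 2 and the lowest on AA-deficient KO array 2. Fosb was at 0.0808 and -0.0519 in AA-deficient KO, at 0.0816 and 0.0643 in AA-supplemented KO, and at 0.0110 and -0.00161 in WT. Ier3 was at 0.0849 and 0.0941 in AA-deficient KO, at 0.0842 and 0.123 in AA-supplemented KO, and at 0.164 and 0.104 in WT. The AA-supplemented arrays of Fosb and Atf3 lay above both WT arrays, and the AA-deficient arrays of Ier3 lay below both. All these values were under or near the limit for testing. Of all tested genes, 19.8% likewise lay above WT in AA-supplemented KO and 26.9% below WT in AA-deficient KO. The shares among genes under the limit were not counted. Ier2 was at 0.172 and 0.210 in AA-deficient KO, at 0.306 and 0.154 in AA-supplemented KO, and at 0.192 and 0.235 in WT. Its AA-supplemented arrays enclosed all others, and its differences from WT were -0.0228 in AA-deficient KO (adjusted p = 0.872 in limma) and 0.0164 in AA-supplemented KO (adjusted p = 0.948).

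The stretches before the transcription start of 5 AP-1 and ATF genes are printed to show where the elements searched for lie in each. They were chosen because each held a match, while Jund and Ier3, whose stretches were searched too, held none and are not printed. They are the 120 bases before the start from RefSeq (GRCm38.p6), read 5′ to 3′ on the strand of the gene. Capitals mark each TGACG on either strand, the half-site of CREB and ATF proteins, each TGACNTCA, the full site that AP-1 and ATF dimers share, and each TATAAA. The stretches lie at chr12:85473770-85473889 (plus strand) for Fos, chr7:19310046-19310165 (minus strand) for Fosb, chr4:95052223-95052342 (minus strand) for Jun, chr8:84978749-84978868 (minus strand) for Junb and chr1:191183334-191183453 (minus strand) for Atf3.
Fos: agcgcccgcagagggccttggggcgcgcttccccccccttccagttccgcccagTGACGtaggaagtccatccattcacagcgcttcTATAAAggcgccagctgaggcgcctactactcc
Fosb: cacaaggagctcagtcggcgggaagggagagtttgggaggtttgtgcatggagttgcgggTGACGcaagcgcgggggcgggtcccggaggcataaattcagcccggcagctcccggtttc
Jun: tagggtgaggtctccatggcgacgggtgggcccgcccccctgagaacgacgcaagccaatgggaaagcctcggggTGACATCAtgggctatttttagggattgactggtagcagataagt
Junb: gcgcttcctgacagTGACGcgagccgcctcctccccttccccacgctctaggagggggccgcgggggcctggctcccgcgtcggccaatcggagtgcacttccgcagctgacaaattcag
Atf3: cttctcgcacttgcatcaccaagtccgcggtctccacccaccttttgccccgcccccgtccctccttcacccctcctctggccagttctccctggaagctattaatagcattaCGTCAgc

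No promoter of Egr1, Ier2 or Myc was available, so these were not searched, nor were bases further than 250 before the start. Of the 7 other members, 4 held TGACG on either strand within 250 bases before the start: Fos, Fosb, Junb and Atf3. The motif was present in 17.8% of all 32851 promoter windows of that length. Counted from the base before the start as -1, it lay in Fos at -66 to -62 and, outside the printed stretch, at -129 to -125, in Fosb at -60 to -56, in Junb at -106 to -102, and in Atf3, on the other strand, at -7 to -3. Jun alone held TGACNTCA, at -45 to -38, which 7.49% of windows held. The other motifs searched on both strands were TGACGTCA, which overlaps TGACG and TGACNTCA and was in 1.55% of windows, TGANTCA in 6.75%, the Egr1 motif GCGTGGGCG in 0.536%, and the CArG box of serum response factor in 1.47%, and 0 of the 7 held any of these. TATAAA was in 12.4% of windows and, among the 7, in Fos. A match describes these letters only.

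Myc varied more between the arrays of a group than between groups. It was at 0.877 and 0.272 in AA-deficient KO, at 0.747 and 0.480 in AA-supplemented KO, and at 0.983 and 0.332 in WT. In each group array 1 was the higher, and the 3 groups overlapped throughout. The group means were 0.574 ± 0.428 in AA-deficient KO, 0.614 ± 0.189 in AA-supplemented KO and 0.657 ± 0.460 in WT (SD, n = 2 each). The differences were -0.0828 in AA-deficient KO against WT and -0.0435 in AA-supplemented KO against WT, each with an SE of 0.237 (adjusted p = 0.892 and 0.973 in limma). With this spread a change of Myc from 0.234-fold to 2.91-fold in AA-deficient KO lay within the 95% interval.

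The gap between the arrays of a group was 0.605 for Myc in AA-deficient KO, exceeded by 1 of the 14662 tested genes, 0.267 in AA-supplemented KO, exceeded by 205, and 0.651 in WT, exceeded by 3. Array 1 and array 2 differed in one direction in all 3 groups for 17.7% of tested genes, and among the 6 tested members for Myc alone. Ranked by the mean gap among such genes, Myc came out at 1, a ranking made after its values were seen. Next in that ranking were the fatty acid hydroxylase gene Cyp4a14, the acute phase gene Saa3, in which array 2 was the higher, and the transcription factor genes Foxq1 and Bcl6. The mean gaps, array 1 minus array 2, were 0.490 for Cyp4a14, -0.468 for Saa3, 0.344 for Foxq1 and 0.341 for Bcl6. Over all tested genes the gaps did not run in parallel: they correlated across genes, which are not independent replicates, at 0.358 between AA-deficient KO and WT, and at -0.369 and -0.284 between AA-supplemented KO and those groups in turn.

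**Figure D3:**
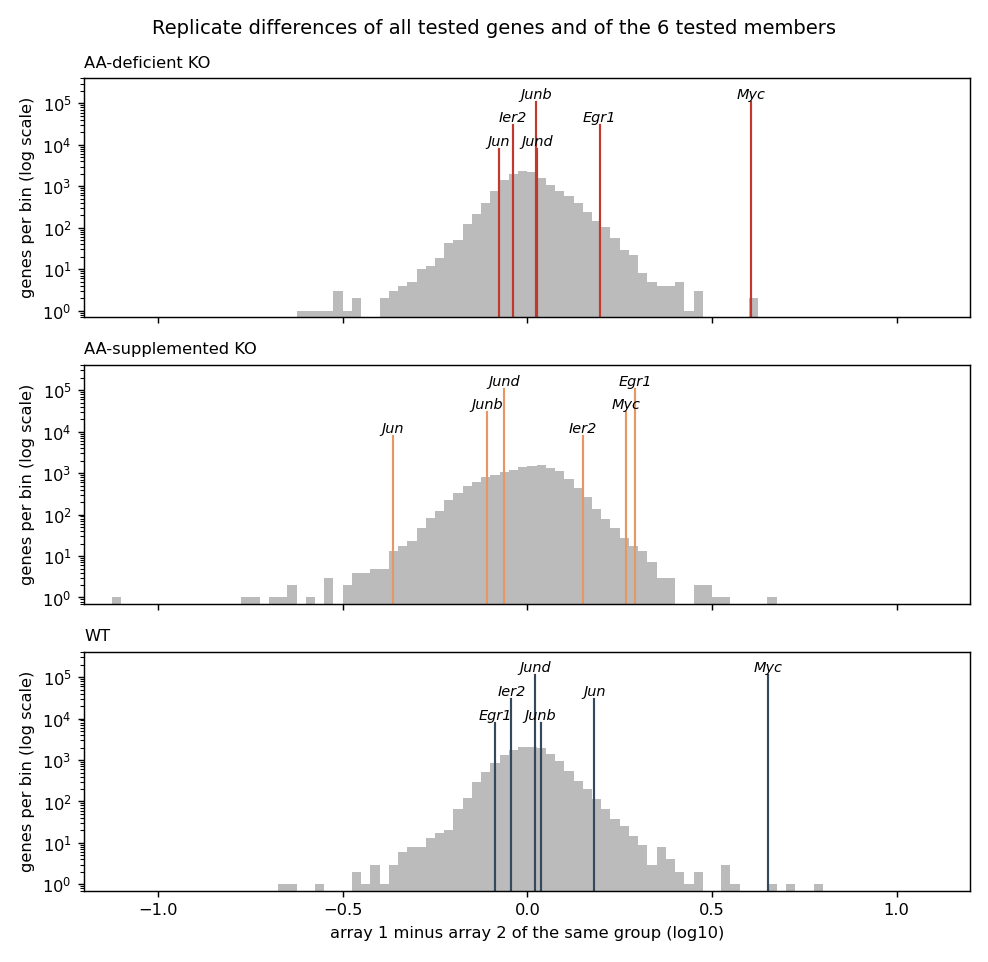
Array 1 minus array 2 (log10) within each group for all 14662 tested genes (grey bars, number of genes per bin on a log scale), with vertical lines at the 6 tested members. Myc lies at 0.605 in AA-deficient KO and 0.651 in WT, beyond nearly all genes.

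Egr1 and Jun also had wide gaps. That of Egr1 was 0.196 in AA-deficient KO and 0.292 in AA-supplemented KO, larger in size than in 97.4% and 99.1% of tested genes. In WT it was -0.0868. That of Jun was -0.364 in AA-supplemented KO, exceeded by 44 genes, and 0.181 in WT, exceeded by 398. The gaps of Junb and Jund lay at the 22.5 to 39.7 percentile of size in AA-deficient KO and WT, and in AA-supplemented KO at the 72.9 percentile for Junb and the 47.6 percentile for Jund.

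Array by array, AA-supplemented KO array 2 carried the highest value of 5 of the 10 genes, Fos, Jun, Junb, Jund and Atf3, while 22.1% of tested genes were highest there. AA-supplemented KO array 1 carried the highest value of Egr1, Fosb and Ier2, and WT array 1 that of Ier3 and Myc. Of tested genes 10.8% and 18.8% in turn were highest on these arrays. No gene of the set was highest on either AA-deficient KO array or on WT array 2. The shares of tested genes highest there were 14.2% and 18.7% on AA-deficient KO arrays 1 and 2, and 15.5% on WT array 2. All these shares leave out genes under the limit for testing. AA-deficient KO array 2 carried the lowest value of 5 of the 10, Fos, Fosb, Jund, Atf3 and Myc, where 17.7% of tested genes were lowest. The median deviation of the 10 genes from their own means was 0.0688 on AA-supplemented KO array 2 and -0.0533 on AA-deficient KO array 2. It was as low on WT array 2, at -0.0543. The median over all tested genes was 0.00483, -0.00269 and -0.00487 on these arrays in turn. The same 5 genes were highest on AA-supplemented KO array 2 after quantile normalization and after median centring. Of all tested genes 16.2% and 13.0% in turn were then highest on that array, and 25.2% and 30.1% were lowest. The summed hepatocyte markers were highest on that array too, and their part in these values was not tested.

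**Figure D4:**
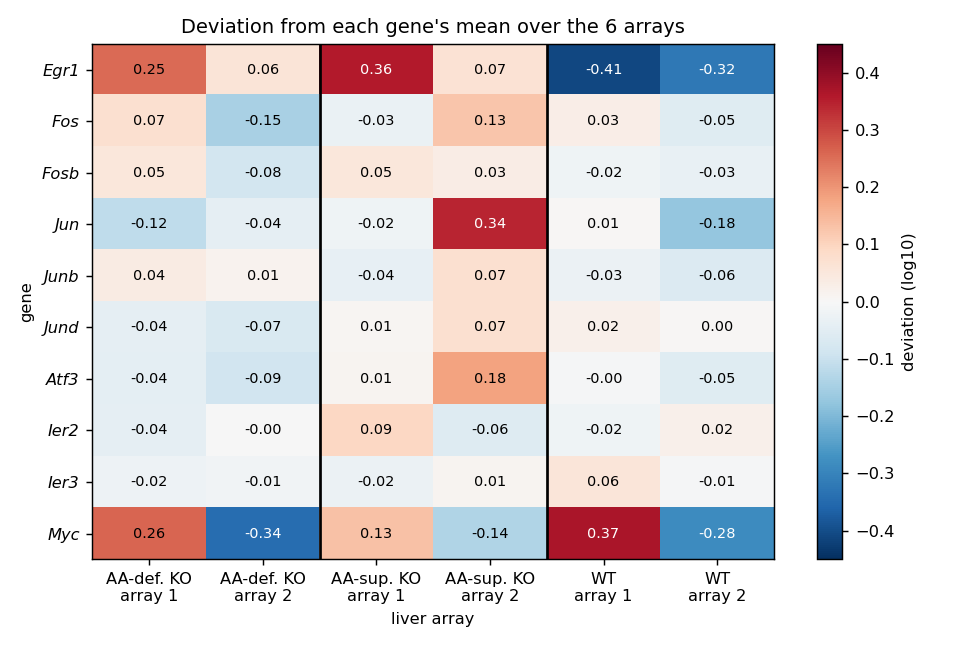
Deviation of each gene (rows) from its own mean over the 6 arrays (columns), in log10 units, red above and blue below. Egr1 is positive on the 4 knockout arrays and negative on both WT arrays, while Jun and Atf3 peak on AA-supplemented KO array 2 and Myc alternates between arrays.

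Among 24 other tested immediate early transcription factors, 0 passed in any of the 3 comparisons in limma. In AA-deficient KO against WT 11 of the 24 were higher, where 48.5% of all tested genes were. The median difference of the 24 was -0.0117 beside -0.00335 over all genes. The orphan receptor gene Nr4a2 was nearest to a call there, at 0.408 and 0.414 in AA-deficient KO and at 0.261 and 0.270 in WT (difference 0.146, adjusted p = 0.0771), followed by Id3, an inhibitor of helix-loop-helix factors (difference -0.170, adjusted p = 0.109). In AA-supplemented KO against WT 15 of the 24 were higher, where 49.1% of all tested genes were. Klf10 differed by 0.134 (SE 0.0550, adjusted p = 0.451 in limma) and Klf6 by 0.134 (SE 0.0567, adjusted p = 0.464). Between AA-deficient and AA-supplemented KO 8 of the 24 were higher, and Id3 differed by -0.123 and Id2 by -0.103 (adjusted p = 0.474 and 0.479 in limma). Closest in family to Egr1, Egr2 differed by 0.0160 and Egr3 by -0.0121 in AA-deficient KO against WT, and neither passed.

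Of 29 other tested immediate early response genes, 3 rose in AA-deficient KO against WT and 0 fell, beside 3.08% of all tested genes higher and 1.55% lower. They were Per1, a clock repressor that signals also induce, Zfp36, which encodes tristetraprolin, a protein that promotes the decay of AU-rich messenger RNAs, and its relative Zfp36l1. Per1 was at 0.679 and 0.720 in AA-deficient KO, at 0.471 and 0.423 in AA-supplemented KO, and at 0.412 and 0.418 in WT. It rose by 0.284 against WT (SE 0.0417, 1.92-fold, adjusted p = 0.0168 in limma). Its values in AA-supplemented KO lay near those of WT, though the difference of 0.252 between AA-deficient and AA-supplemented KO did not pass (adjusted p = 0.0870). Zfp36 was at 1.02 and 1.10 in AA-deficient KO, at 0.937 and 1.02 in AA-supplemented KO, and at 0.837 and 0.814 in WT. It rose in AA-deficient KO by 0.230 (SE 0.0481, adjusted p = 0.0420) and Zfp36l1 by 0.192 (SE 0.0428, adjusted p = 0.0477). For both Zfp36 genes the AA-supplemented KO arrays were also above both WT arrays, without passing. In AA-supplemented KO against WT 23 of the 29 were higher, where 49.1% of all tested genes were, and 0 passed. The median difference of the 29 was 0.0457 beside -0.00167 over all genes. Between the knockout groups 11 of 29 were higher in AA-deficient KO and 0 passed.

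Among factors that act upstream, 15 genes of serum response factor, its partners and CREB with its coactivators were tested. Of these 12 were higher in AA-deficient KO than in WT, where 48.5% of all tested genes were, 2 rose and 0 fell, beside 3.08% of all genes called higher and 1.55% lower. Mrtfb, a coactivator of serum response factor, rose by 0.230 (SE 0.0420, 1.70-fold, adjusted p = 0.0295 in limma), and Crebbp, the CREB-binding acetyltransferase, by 0.272 (SE 0.0501, 1.87-fold, adjusted p = 0.0303). The gene of serum response factor itself, Srf, differed by 0.0110 (adjusted p = 0.932). In AA-supplemented KO 14 of the 15 were higher than in WT, where 49.1% of all genes were, and 0 passed, with Crebbp at 0.257 and Mrtfb at 0.205 (adjusted p = 0.190 for each). On the linear scale the 15 genes summed to 114 and 117 in AA-deficient KO, to 119 on both AA-supplemented KO arrays, and to 90.9 and 100.3 in WT, so the knockout arrays lay above both WT arrays. Of 16 tested genes of the MAP kinase cascades 0 passed in any comparison, and 8 were higher in each comparison with WT. The nearest were Map2k3 at -0.189 in AA-deficient KO against WT (adjusted p = 0.0552) and Map3k5 at -0.172 between AA-deficient and AA-supplemented KO (adjusted p = 0.211).

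Of 13 partners and repressors of AP-1 and Egr1, 2 rose in AA-deficient KO against WT and 0 fell, beside 3.08% of all genes called higher and 1.55% lower. Atf7, an ATF family factor, rose by 0.215 (SE 0.0395, 1.64-fold, adjusted p = 0.0302 in limma), and Mafg, a small Maf protein, by 0.195 (SE 0.0432, 1.57-fold, adjusted p = 0.0477). The corepressors of Egr1, Nab1 and Nab2, differed by -0.00336 and 0.0779 and did not pass. In AA-supplemented KO Atf7 was 0.141 and Mafg 0.156 above WT (adjusted p = 0.294 and 0.292), and 0 of the 13 passed.

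Of 15 tested targets of Myc, 3 were higher in AA-deficient KO than in WT, 2 fell and 0 rose, with a median difference of -0.0815. Over all tested genes 48.5% were higher, 1.55% were called lower and 3.08% higher, and the median was -0.00335. Srm, the spermidine synthase, fell by 0.281 (SE 0.0498, adjusted p = 0.0276 in limma) and Nop56, a core protein of the nucleolar particles that modify ribosomal RNA, fell by 0.212 (SE 0.0465, adjusted p = 0.0464). Srm was at 1.47 and 1.37 in AA-deficient KO, at 1.58 and 1.61 in AA-supplemented KO, and at 1.74 and 1.67 in WT. The Myc targets summed on the linear scale to 216 and 223 in AA-deficient KO, to 239.5 and 289 in AA-supplemented KO, and to 272 and 269 in WT. The AA-deficient arrays lay below all others, while Myc itself was split by array. In the network of Myc partners and antagonists 0 of 13 passed in any comparison. The nearest were Mlx at -0.177 (adjusted p = 0.0507) in AA-deficient KO against WT and Max, the obligate partner, at -0.123 between AA-deficient and AA-supplemented KO (adjusted p = 0.322).

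Of 12 tested genes of the priming of regenerating liver, 1 rose in AA-deficient KO against WT and 0 fell, beside the same shares of 3.08% and 1.55%. It was Igfbp1, a secreted binder of insulin-like growth factors that is itself induced early in regenerating liver. Igfbp1 was at 0.930 and 1.44 in AA-deficient KO, at 0.582 and 0.921 in AA-supplemented KO, and at 0.464 and 0.371 in WT (difference from WT in AA-deficient KO 0.768, SE 0.161, adjusted p = 0.0424 in limma). The AA-supplemented KO lay between the other groups, and array 2 was the higher in both knockout groups. The 10 calls in these pathway lists were all lost without either WT array, and each passed in only 8 to 11 of the 16 alternatives.

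**Figure D5:**
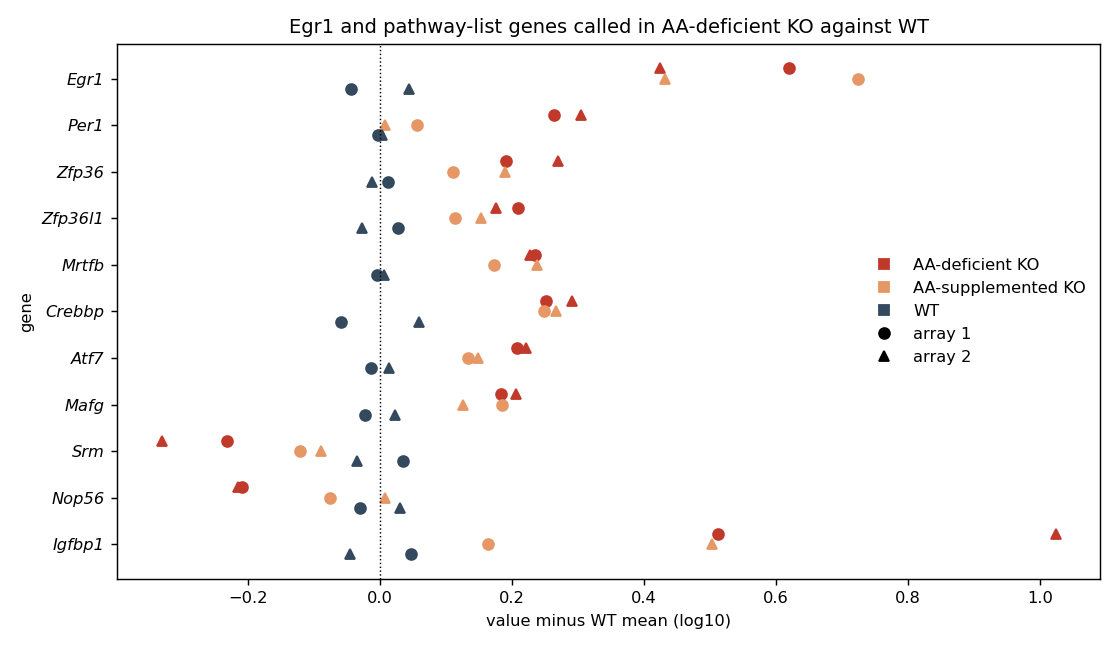
Value minus the WT mean (log10) on each array for Egr1 and the 10 genes of the pathway lists that passed in AA-deficient KO against WT. Crebbp and Mrtfb, like Egr1, are above WT on all 4 knockout arrays, Per1 is near WT in AA-supplemented KO, and Srm and Nop56 are below WT in AA-deficient KO.

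Markers of other liver cells were set beside these values. The 10 Kupffer cell and macrophage markers summed on the linear scale to 94.5 and 115 in AA-deficient KO, to 110 and 88.9 in AA-supplemented KO, and to 93.3 and 99.9 in WT, so the groups overlapped, and 0 passed in any comparison in limma. The 10 stellate cell markers summed to 92.9 and 83 in AA-deficient KO, to 68.7 and 88.5 in AA-supplemented KO, and to 95.4 and 85.6 in WT, with 0 past the threshold. The 10 sinusoidal endothelial markers summed to 162 and 171 in AA-deficient KO, to 152 and 151 in AA-supplemented KO, and to 166 and 157 in WT. Of these 10, 7 were higher in AA-deficient KO than in WT, where 48.5% of all tested genes were. The 1 call was Stab2, a scavenger receptor of sinusoidal endothelium, which rose (difference 0.237, adjusted p = 0.0320 in limma). None fell, beside 3.08% of all tested genes called higher and 1.55% lower. Clec4g, Pecam1 and Fcgr2b differed in the other direction without passing. The 10 neutrophil markers, 4 of them tested, summed to 13 and 12.3 in AA-deficient KO, to 15.6 and 18.5 in AA-supplemented KO, and to 15.2 and 15.6 in WT, with 0 past the threshold. The 8 lymphocyte markers with a value summed to 11 and 15.8 in AA-deficient KO, to 12.4 and 11.4 in AA-supplemented KO, and to 13.2 and 13 in WT, with 0 past the threshold. The 6 cholangiocyte markers with a value summed to 11.7 and 9.77 in AA-deficient KO, to 9.88 and 12.6 in AA-supplemented KO, and to 10.7 and 12.6 in WT, with 0 past the threshold. With the knockout groups pooled, the values overlapped those of the WT arrays for each of these sums. By group, both AA-deficient KO arrays lay below both WT arrays for the neutrophil sum. Both AA-supplemented KO arrays lay below both WT arrays for the endothelial and lymphocyte sums. In every other comparison of a knockout group with WT these sums overlapped. The part of such cells in the values of single genes was not tested.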

How the data were processed

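Liver RNA was extracted with ISOGEN and labelled with an Affymetrix WT Terminal Labeling kit, per the labels' protocols. The authors deposited 1 table of log values per probe set and array, read here as log10 because the span of -0.575 to 2.51 would be 8.48-fold on a log2 scale and 1213-fold on a log10 scale. No source used here gives the software, the normalisation or the log base. Of 34760 probe sets, 3995 without a value were left out. Of the rest, 21161 had 1 gene symbol in the platform annotation, 1150 had several and 8454 had none. The probe set of highest mean stood for a gene. Genes at or above the 25th percentile were fitted in R 4.3.3 with the linear models of limma 3.58.1 (all 6 arrays together, eBayes without trend, 3 residual and 4.89 prior degrees of freedom), on the values as deposited. P-values are two-sided and Benjamini-Hochberg adjusted over the 14662 genes, with a threshold of 0.05. An exact permutation test of 2 arrays against 2 cannot go below 0.333 and was not used. The fit was also run on simulated data with arrays drawn independently. Those data lack the gaps seen between the arrays here, and no result rests on them. Sums of markers are of 10 raised to the value. The 218 list genes, of which 204 had a value and 188 were tested, the members and the rule for naming genes were chosen with earlier results of these data known. All members were named, and from each list the genes past the threshold (up to 4 a comparison) or, with none in the list, up to 2 of smallest p. Egr2, Egr3, Srf, Nab1 and Nab2 were added as relatives or partners of the members after the values were seen. Alternatives changed the filter, the normalisation, the variance prior, the arrays fitted, the replicate block and the probe set rule. Precision is limited by having 2 arrays a group.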

Additional observations from a re-analysis of the deposited data

Results flagged for a closer look

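The Atf3 values of the knockout groups lay on opposite sides of the WT mean, all at low levels. Both AA-deficient KO arrays (0.0979 and 0.0552) lay below the WT mean of 0.113, and both AA-supplemented KO arrays (0.153 and 0.322) lay above it, so that AA-deficient minus AA-supplemented KO was -0.161. The AA-deficient arrays still overlapped those of WT (0.138 and 0.0875), with a difference of -0.0364 from WT. Neither difference was tested among the 14662 genes, since the mean of Atf3 was under the limit for testing. Without that limit the difference between the knockout groups had an adjusted p = 0.588 in limma over 19550 genes (unadjusted p = 0.0364).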

How the results depend on the processing

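In AA-deficient KO against WT the 1 call among the members, Egr1, became 0 without a filter on low values (adjusted p = 0.0723) and with a replicate block (adjusted p = 0.0546), and 0 to 1 when single arrays were left out. The cause was not tested. Over the 16 alternatives Egr1 kept its direction, at 0.425 to 0.620, and passed in 11. In AA-supplemented KO against WT Egr1 was at 0.432 to 0.724, and the count of 0 became 1 with a trend in the prior. In the test of any difference among the groups the count of 0 became 1 with a filter at the 50th percentile, median centring, a trend, a trend with a robust fit, and the mean of all probe sets, and was 0 to 1 without single arrays. Between the knockout groups the count was 0 in all 16 alternatives. Over all genes the calls in AA-deficient KO against WT (679) became 173 without a filter, 1057 at the 50th percentile, 1271 with a trend, 1312 with a robust trend, 1031 with only the 4 arrays compared, 163 with the replicate block, and 1 to 1031 without single arrays. Those in AA-supplemented KO against WT (1) became 8 with median centring, 94 and 116 with the trends and 3 with the block, and 1 to 7 without single arrays. Those between the knockout groups (30) became 0 without a filter, 51 at the 50th percentile, 14 with quantile normalization, 57 with centring, 13 with cyclic loess, 154 and 177 with the trends, 0 with only the 4 arrays, 4 with the block, and 0 to 46 without single arrays. Small differences turned sign. Jun in AA-deficient KO against WT was at -0.000226 after quantile normalization and -0.00468 after centring, and Ier2 in AA-supplemented KO against WT at -0.00190 after quantile normalization. Without single arrays the ranges that crossed 0 were -0.0833 to 0.0981 for Jun and -0.408 to 0.243 for Myc in AA-deficient KO against WT, and -0.0593 to 0.0921 for Ier2, -0.00511 to 0.0584 for Jund and -0.369 to 0.282 for Myc in AA-supplemented KO against WT. Between the knockout groups they were -0.201 to 0.0904 for Egr1, -0.115 to 0.0364 for Ier2, -0.0455 to 0.0636 for Junb and -0.342 to 0.263 for Myc. The 10 pathway-list calls in AA-deficient KO against WT kept their direction in all 16 alternatives and passed in 8 (Igfbp1, Zfp36l1), 9 (Zfp36, Mafg, Nop56), 10 (Mrtfb, Crebbp, Atf7, Srm) or 11 (Per1). A lone array left in a group is assumed to vary like the other groups. The shared replicate numbers did not pair the arrays over all 3 groups, with correlations of the gaps of 0.358, -0.369 and -0.284. With 2 arrays a group, a call depended on the spread of a gene as well as on its change. Zfp36l1 passed at 1.56-fold in AA-deficient KO against WT with an SE of 0.0428, while Myc had an SE of 0.237. Changes of genes with a wide spread may be missed.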
